A study of Mus musculus with 24 samples.

Results

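The 8 liver samples labelled semaglutide, from mice with NASH, a steatotic liver disease in which inflammation and scarring accompany the fat, were examined for how much they differed from each other. They were all such samples, 8 of 24 in the series, and were set against the 8 samples given vehicle. The other 8 received vutiglabridin and were used here only in an alternative fit of all 3 groups. Semaglutide is a long-acting drug that activates the GLP-1 receptor and lowers appetite. All groups share the diseased liver. The labels give no mouse model, strain, age, sex, diet, dose, duration or time of collection, and do not say that the replicates were separate animals. The p-values therefore rest on the differences between these samples alone, which may be technical.

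Gene expression was available as FPKM, fragments per kilobase of transcript, scaled to the mapped fragments of the library. Of 14293 genes in the table, 10183 had a mean of at least 1 FPKM over the 8 semaglutide livers and a symbol on 1 row only. Spread was measured as the standard deviation (SD) of log2(FPKM + 1) over the 8 livers of a group.

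Livers of 1 treatment group can differ in programmes that follow feeding, inflammation, hormones and stress. Acute phase proteins are secreted by hepatocytes under interleukin-6 and related cytokines. Major urinary proteins and male-biased cytochrome P450 genes follow the pulsatile growth hormone secretion of male mice. Sterol and fatty acid synthesis genes follow the SREBP transcription factors and the fed state, and metallothionein genes respond to zinc, glucocorticoids and inflammation.

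The livers were of the labelled tissue. The summed level of 39 hepatocyte genes lay between 72063 and 90107 FPKM in semaglutide livers and between 65144 and 81611 FPKM in vehicle livers. Pancreatic acinar markers summed to at most 5.1 FPKM and skeletal muscle markers to at most 1.78 FPKM in semaglutide livers. The steps between low FPKM values imply 9.3 to 12.4 M fragments (M, mega) per semaglutide library (mean 10.6 ± 1.22, SD, n = 8) and 12.0 to 19.8 M per vehicle library (14.4 ± 2.70, SD, n = 8). The shallower semaglutide libraries have the larger counting error, with a median implied counting SD of 0.069 in semaglutide libraries and 0.0598 in vehicle libraries on the log2 scale. The values of the semaglutide columns are also written differently from the others, each with a trailing space, so drug and any separate processing of these columns cannot be told apart.

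Semaglutide livers 5 and 7 stood apart from the other 6. On the first principal component of the semaglutide livers, which held 30.4% of their variance, they lay at 17.6 and 17.3, while the other 6 lay between -11.3 and -1.87. They also had the 2 deepest semaglutide libraries, 12.4 and 12.2 M implied fragments. Their deviations from the group mean were related across genes to transcript GC content (Spearman rho 0.52 in liver 5 and 0.40 in liver 7) and to exon length (-0.46 in liver 5 and -0.26 in liver 7). Semaglutide liver 4 went the other way for GC content (-0.45). Trends with GC content were not confined to the semaglutide group. Among vehicle livers this rho ran from -0.38 in liver 5 to 0.41 in livers 3 and 4. For exon length it ran from -0.18 in vehicle liver 4 to 0.24 in vehicle liver 6. The part of library composition in what follows was not tested beyond the values given with and without semaglutide livers 5 and 7 or the GC and length trends.

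**Figure D1:**
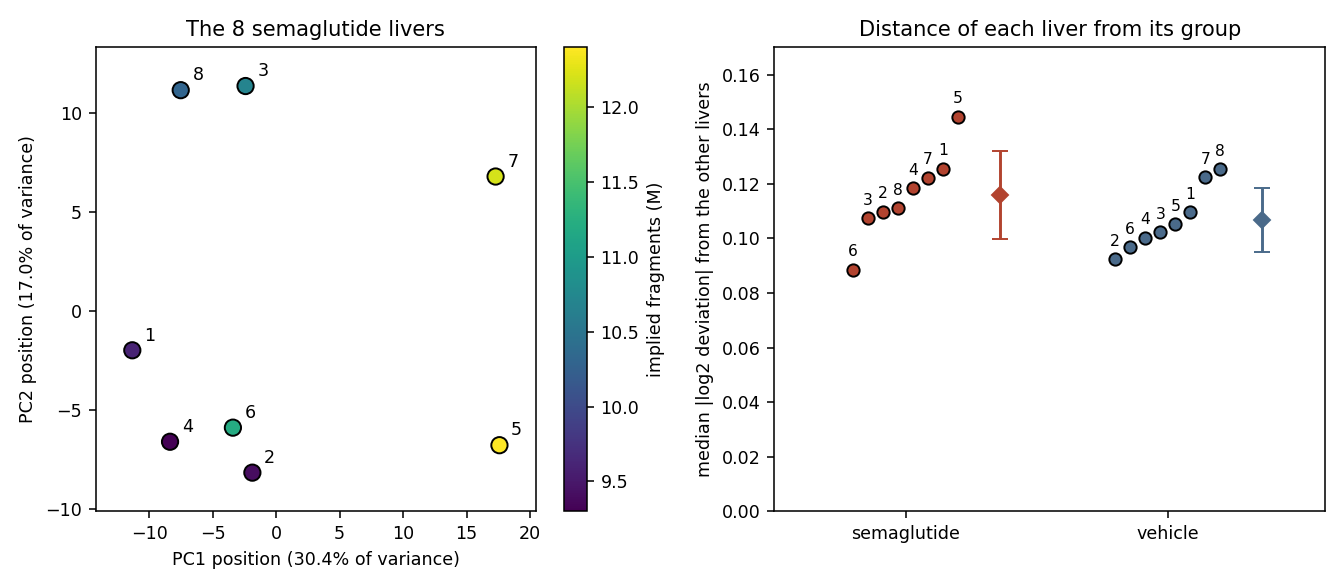
Left, positions of the 8 semaglutide livers (numbered) on the first and second principal components of log2(FPKM + 1), coloured by implied fragments (M, mega). Right, for each liver of both groups, the median over 10183 genes of its absolute log2 deviation from the mean of the other livers of its group, with the group mean and SD as a diamond with bars. Livers 5 and 7 lie apart at the right of the first component, and the distances of the 2 groups overlap.

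Across all genes the 2 groups differed little in how far their livers lay from each other. The median SD of a gene was 0.148 among semaglutide livers and 0.137 among vehicle livers, and 59.1% of genes (6018) had the larger SD among semaglutide livers. Without livers 5 and 7 that share was 48.2%. The median deviation of a liver from the rest of its group averaged 0.116 ± 0.0162 in semaglutide livers and 0.107 ± 0.0118 in vehicle livers (SD, n = 8 each). The difference of 0.00918 was within the spread between livers (exact permutation test over all 12870 splits, 2-sided, p = 0.217), but the call depended on single livers. It was 0.0153 without semaglutide liver 6, past the threshold (exact permutation test, p = 0.0339), and 0.00449 without semaglutide liver 5 (exact permutation test, p = 0.527). Without livers 5 and 7, left out together after seeing the data, it was 0.000855 (exact permutation test, p = 0.885). Semaglutide liver 5 was farthest from its group, at 0.145, and liver 6 nearest, at 0.0885.

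No single gene differed in spread past correction. The test set the absolute deviations from the group mean of the 8 semaglutide livers against those of the 8 vehicle livers in a limma fit across all genes, with Benjamini-Hochberg adjustment over 10183 genes. It called 0 genes (0%) with larger and 0 genes (0%) with smaller spread at adjusted p under 0.05, and the lowest adjusted p was 0.248, for Orm3. At unadjusted p under 0.05, 567 genes (5.57%) had the larger spread among semaglutide livers and 261 (2.56%) the smaller. An exact Wilcoxon test on the same deviations had 460 and 204 genes at unadjusted p under 0.05. It called 0 after adjustment, but a single gene alone at the smallest p that 8 livers per group allow cannot pass. That 0 therefore adds nothing to the limma result. With deviations taken from the group median, the limma fit called 0, with only 281 and 120 genes at unadjusted p under 0.05. Orm3 then had an adjusted p of 0.998 (limma). Below, every unadjusted p not called exact is from the limma fit on deviations from the group mean, and failed the correction over 10183 genes. The highest SDs were partly shared, with 44 genes among the 100 most variable in both groups.

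Single genes did vary widely between semaglutide livers, and 148 had an SD above 0.5 among semaglutide livers against 101 among vehicle livers. The 20 highest SDs among semaglutide livers belonged to Mup17, Tff3, Slco1a1, Mup11, Gadd45g, Mt2, Cyp2a4, Mt1, Cfd, Mup7, Gm10800, Mup14, Serpina1e, Elovl3, Mup18, Ly6d, Myc, Sqle, Cyp2c54 and Cyp4a12a. They include urinary protein and other male-biased genes, metallothioneins, early response genes, a sterol gene and markers of other cells. Tff3, a trefoil peptide of mucous epithelium, had FPKM values of 1.69 (lowest), 4.45 (median) and 59.5 (highest, liver 2) in semaglutide livers, against 0.34, 1.7 and 4.59 in vehicle livers. In 4 semaglutide livers Tff3 was above every vehicle liver, and its SD among semaglutide livers was 1.51, and 0.95 without liver 2.

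**Figure D2:**
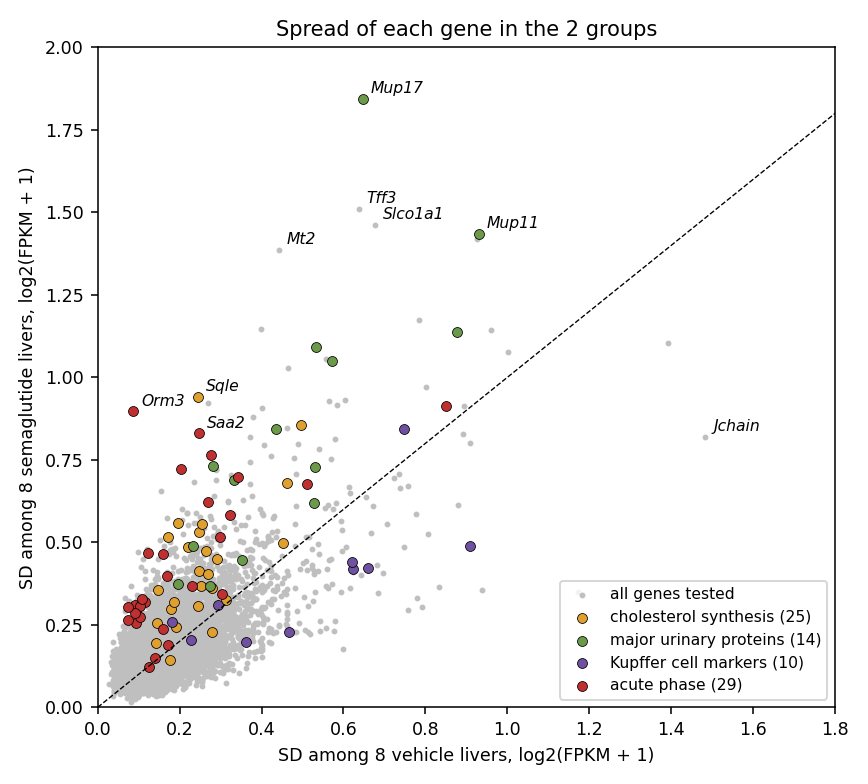
SD of log2(FPKM + 1) of each of 10183 genes among 8 semaglutide livers (vertical) and among 8 vehicle livers (horizontal), with equal spread on the dashed line and 4 gene lists in colour. Acute phase genes lie above the line in 28 of 29 cases, and Kupffer cell markers below it in 7 of 10.

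Nearly all acute phase genes had the larger spread among semaglutide livers. All 29 list members were tested, and 28 had the larger SD among semaglutide livers, with a median SD of 0.34 in semaglutide livers and 0.16 in vehicle livers. In comparison, all genes had medians of 0.148 and 0.137. The larger SD was on the semaglutide side for 59.1% of all genes. At unadjusted p under 0.05, 18 of the 29 had the larger spread and 0 the smaller, against 5.57% and 2.56% of all genes. The members also moved together from liver to liver, with a mean pairwise r of 0.47 among semaglutide livers and 0.08 among vehicle livers, where all genes had 0.0046 and 0.0025. Livers 5, 1 and 2 were high and livers 8, 4 and 3 were low, at a mean log2 deviation over the list of 0.45, 0.29 and 0.19 and of -0.40, -0.27 and -0.26. Without livers 5 and 7, 25 of 29 members had the larger SD among semaglutide livers, against 48.2% of all genes, and the mean pairwise r was 0.47. With trends in GC content and length removed it was 29 of 29, against 57.7% of all genes.

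Orm3, an orosomucoid gene on chromosome 4 (63356162-63359511, GRCm38), had the lowest limma p for a difference in spread, though not the largest difference. It had 0.96, 5.37 and 10.8 FPKM (lowest, median, highest) in semaglutide livers, against 18.6, 21.3 and 23.3 FPKM in vehicle livers. All 8 semaglutide livers lay below all vehicle livers, and they covered an 11.2-fold range while the vehicle livers covered a 1.25-fold range. The SDs were 0.90 and 0.09, with a difference in mean absolute deviation of 0.66 ± 0.16 (SE; limma, unadjusted p = 2.43e-05, adjusted p = 0.248). Livers 3 and 8 held the low values (0.96 and 1.5 FPKM). The median semaglutide library held only about 45 implied Orm3 fragments, for a counting SD of 0.20. Orm1, the abundant orosomucoid, ranged from 319 to 836 FPKM in semaglutide livers (SD 0.47) and from 595 to 767 FPKM in vehicle livers (SD 0.12). Orm genes are near-identical copies, so their separate values are uncertain.

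The serum amyloid A genes, whose products are apolipoproteins of inflamed plasma, ran between the same livers as the list. Saa2 had 9.49, 33.1 and 62.3 FPKM in semaglutide livers, lowest in liver 8 and highest in liver 5, against 46.6, 65.0 and 83.0 FPKM in vehicle livers. The groups overlapped, with 6 semaglutide livers below every vehicle liver. Its SD was 0.83 in semaglutide livers and 0.25 in vehicle livers (limma, unadjusted p = 0.00408, adjusted p = 0.462). Saa1 tracked Saa2 among semaglutide livers with r = 0.99 (exact permutation p = 7.44e-05, adjusted p = 0.354 over 10182 genes; rho 0.98), and among vehicle livers with r = 0.91. Haptoglobin (Hp), which binds free haemoglobin, ranged from 2076 FPKM in liver 4 to 4085 FPKM in liver 5 of the semaglutide group, and from 2587 to 3302 FPKM in vehicle livers. The protease inhibitor gene Serpina3n ranged from 188 to 330 FPKM in semaglutide livers and from 226 to 259 FPKM in vehicle livers.

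The fibrinogen genes Fga, Fgb and Fgg encode the 3 chains of the clotting protein and lie side by side on chromosome 3. Their upstream sequences are shown because the 3 genes moved together and each window holds the core of the acute phase element, CTGGGA, which is in capitals below. The windows end at the annotated start, run 5′ to 3′ on the gene's own strand and come from RefSeq (GRCm38.p6).
Fga: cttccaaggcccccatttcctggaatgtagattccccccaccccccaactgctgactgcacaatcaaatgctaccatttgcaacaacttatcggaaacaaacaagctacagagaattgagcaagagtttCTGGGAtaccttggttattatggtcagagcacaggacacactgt
Fgb: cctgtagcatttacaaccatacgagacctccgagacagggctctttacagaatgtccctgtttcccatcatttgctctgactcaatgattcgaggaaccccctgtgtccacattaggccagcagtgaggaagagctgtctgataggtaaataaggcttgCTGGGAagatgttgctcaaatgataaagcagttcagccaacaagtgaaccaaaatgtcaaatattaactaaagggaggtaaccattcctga
Fgg: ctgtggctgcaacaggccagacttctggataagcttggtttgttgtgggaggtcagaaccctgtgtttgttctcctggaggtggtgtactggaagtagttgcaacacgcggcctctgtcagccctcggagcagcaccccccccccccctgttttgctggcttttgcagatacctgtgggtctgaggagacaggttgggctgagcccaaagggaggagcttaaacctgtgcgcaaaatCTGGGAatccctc
They span chr3:83025903-83026075 (Fga, plus strand, 173 bases), chr3:83049864-83050113 (Fgb, minus strand, 250 bases) and chr3:83007474-83007723 (Fgg, plus strand, 250 bases). Searched on both strands, CTGGGA occurs in 27.0% of 32851 windows of 250 bases upstream of RefSeq genes. Among the 8131 tested genes with such a window, 32.5% have a match. A match therefore describes the letters and no site.

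Fgb had 838, 1007 and 1386 FPKM in semaglutide livers and 727, 813 and 838 FPKM in vehicle livers. All 8 semaglutide values were above all vehicle values, the lowest of them (liver 8) by less than 1 FPKM, and the SDs were 0.26 and 0.07 (limma, unadjusted p = 0.00124, adjusted p = 0.386). Liver 8 was lowest for all 3 fibrinogen genes, and livers 1, 2 and 5 were the highest 3 for each. Among semaglutide livers Fga and Fgg had r = 0.98 (rho 0.95), Fga and Fgb r = 0.96 (rho 0.86), and Fgb and Fgg r = 0.92 (rho 0.81). Without the 2 livers farthest from the median these pairs had r = 0.95, 0.95 and 0.93. These pairs were picked after their values were seen and are given as a description, with no test. Among vehicle livers the same pairs, in that order, had r = 0.83, 0.77 and 0.86, so the fibrinogen genes moved together in both groups.

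Not every acute phase gene did so. Crp, C-reactive protein, ranged from 89.6 to 140 FPKM in semaglutide livers and from 91.2 to 131 FPKM in vehicle livers, with SDs of 0.19 and 0.17. Ceruloplasmin (Cp) had SDs of 0.12 in both groups. Hamp, which encodes the iron hormone hepcidin, was variable in both groups, with SDs of 0.91 and 0.85 and its highest semaglutide value, 1106 FPKM, in liver 8, where the list as a whole was lowest.

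**Figure D3:**
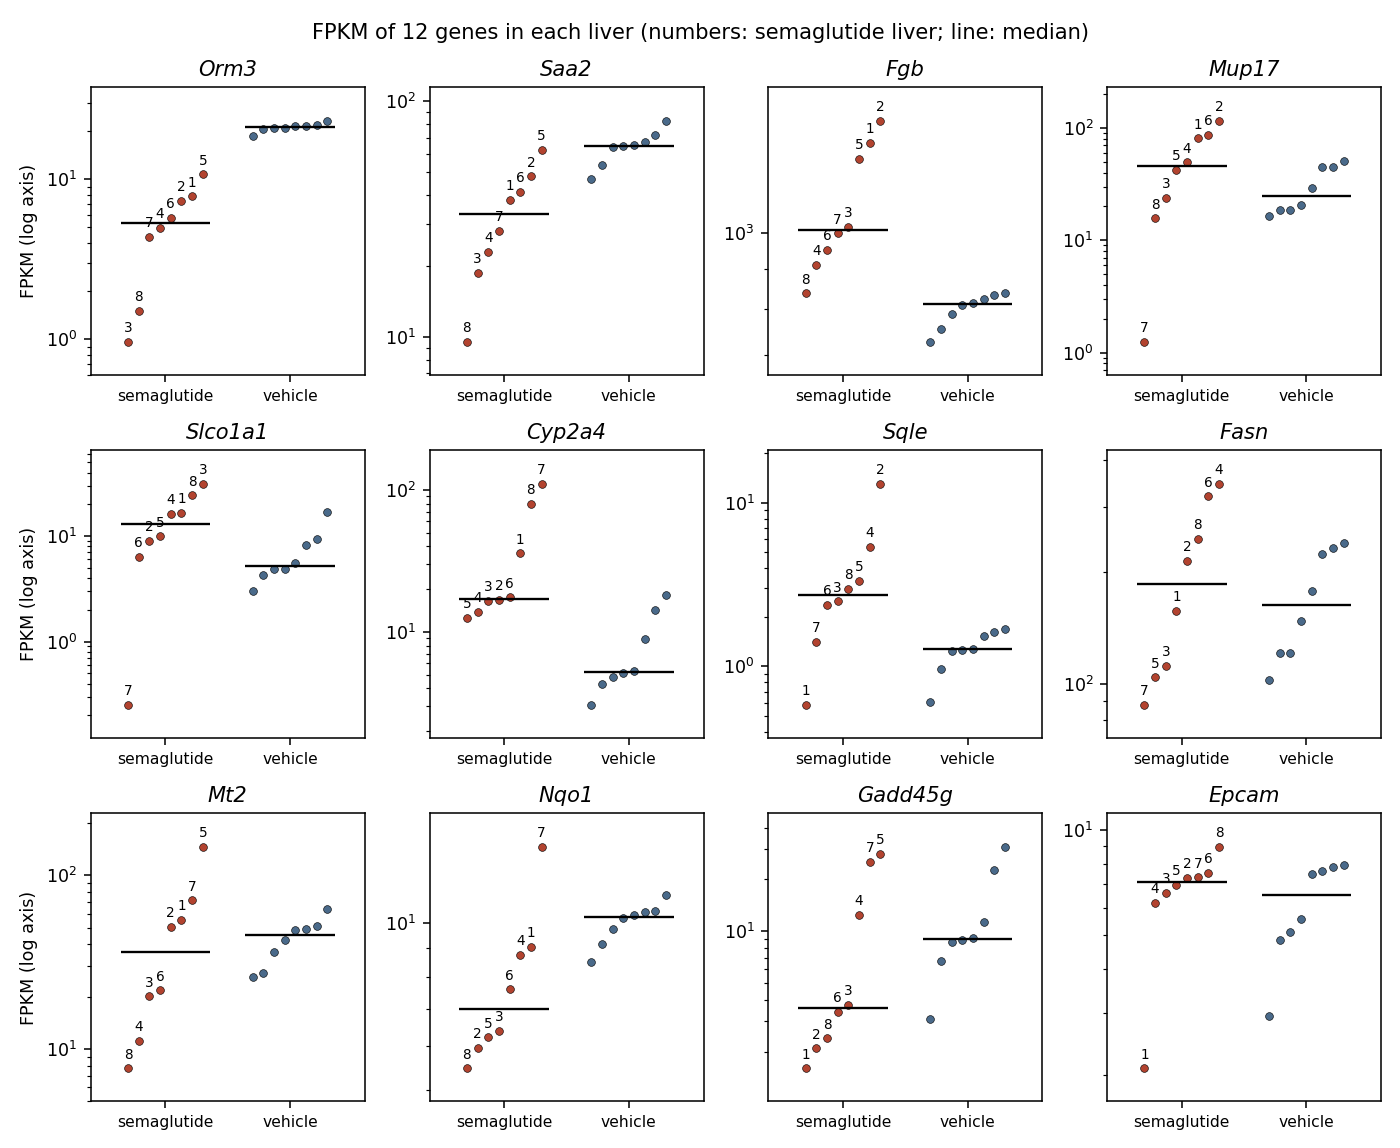
FPKM of 12 genes in each of 8 semaglutide livers (left in each panel, numbered by liver) and 8 vehicle livers (right), on log axes, with the median as a line. Orm3, Saa2 and Fgb are spread over most semaglutide livers, while Slco1a1, Mup17 and Epcam owe much of their range to 1 liver.

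Neutrophil genes were highest in the same liver as the acute phase list. The genes S100a8 and S100a9, which encode the subunits of calprotectin, peaked in semaglutide liver 5, at 3.84 and 8.34 FPKM. Their medians in semaglutide livers were 1.01 and 1.6 FPKM, and vehicle livers reached at most 2.67 and 2.93 FPKM. Of 19 neutrophil markers, 13 were in the table and 5 were tested. The summed level of the 13 lay between 13.4 and 54.0 FPKM in semaglutide livers, highest in liver 5, and between 41.3 and 73.1 FPKM in vehicle livers. Of the 5 tested, 3 had the larger SD among semaglutide livers, a share close to the 59.1% of all genes. Their median SD was 0.70 in semaglutide livers and 0.29 in vehicle livers. Without liver 5 it was 0.41 in semaglutide livers, and without livers 5 and 7 it was 0.32. The part of neutrophils in the acute phase pattern was not tested, and in bulk tissue fewer cells of a type and less RNA per cell cannot be told apart.

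The metallothionein genes Mt1 and Mt2, neighbours on chromosome 8 whose products bind zinc, also peaked in liver 5. The 250 bases upstream of the RefSeq start of Mt2 (chr8:94172368-94172617, plus strand, GRCm38.p6) are shown because Mt2 was among the most variable genes. Matches to the metal response element core, TGCNCNC on either strand, are in capitals.
Mt2: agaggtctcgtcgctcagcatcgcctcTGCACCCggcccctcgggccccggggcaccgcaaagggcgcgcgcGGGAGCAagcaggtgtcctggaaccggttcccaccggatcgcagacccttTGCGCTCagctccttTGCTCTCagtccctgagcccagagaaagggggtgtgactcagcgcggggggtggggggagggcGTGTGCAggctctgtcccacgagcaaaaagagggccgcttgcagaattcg
The window holds 5 matches to this loosened pattern. At least 1 match occurs in 44.4% of 32851 such windows and 5 or more in 0.344%. Among the 8131 tested genes with such a window, 56.7% have at least 1 match. The GENCODE transcript of Mt2 starts further downstream, at 94172664.

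Mt2 had 7.73, 36.1 and 147 FPKM in semaglutide livers, against 26.1, 45.3 and 64.1 FPKM in vehicle livers. Livers 5 and 7 were above every vehicle liver and 4 others below every one, so the semaglutide livers enclosed the whole vehicle range. The SDs were 1.39 and 0.44 (difference in mean absolute deviation 0.86 ± 0.26, SE; limma, unadjusted p = 0.000894, adjusted p = 0.382), and without liver 5 the semaglutide SD was 1.17. Mt1, with SDs of 1.15 and 0.40, followed Mt2 with r = 0.99 among semaglutide livers (exact permutation p = 0.000124, adjusted p = 0.126 over 10182 genes; rho 0.95) and 0.96 among vehicle livers. The immediate early gene Ier2 followed Mt1 with r = 0.97 and rho = 1.0 among semaglutide livers (exact permutation p = 2.48e-05, the smallest the pairings allow; adjusted p = 0.0842 over 10182 genes) and r = 0.02 among vehicle livers.

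Gadd45g and Myc were high in the same livers. Gadd45g, a growth arrest and DNA damage gene, had 1.6, 3.56 and 28.2 FPKM in semaglutide livers, with 28.2 FPKM in liver 5 and 25.3 FPKM in liver 7, against 3.08, 9.02 and 31.0 FPKM in vehicle livers. The vehicle livers also held 2 high values, so the spread was large in both groups (SDs of 1.42 and 0.93). Myc, a growth transcription factor, was highest in livers 7 and 5 at 11.3 and 10.4 FPKM, with a median of 2.81 FPKM. Of 27 immediate early genes, 18 were tested. They had a median SD of 0.35 in semaglutide livers and 0.34 in vehicle livers, and 12 of the 18 had the larger SD among semaglutide livers, a share close to the 59.1% of all genes. Their mean pairwise r was 0.48 among semaglutide livers and 0.07 among vehicle livers. Without livers 5 and 7 4 of 18 had the larger SD, against 48.2% of all genes, with a mean pairwise r of 0.30. Without GC and length trends 9 of 18 did, against 57.7% of all genes, with a mean pairwise r of 0.33.

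Liver 7 was set apart by its male-biased genes. Of 22 major urinary protein genes, which encode pheromone carriers, 14 were tested, and all 14 had the larger SD among semaglutide livers (medians 0.73 in semaglutide livers and 0.48 in vehicle livers), 2 of them at unadjusted p under 0.05. Of all genes, 59.1% had the larger SD and 5.57% the larger spread at that p. Mup17 (chromosome 4, 61591929-61595871) had 1.24, 45.7 and 116 FPKM in semaglutide livers, against 16.5, 24.9 and 50.8 FPKM in vehicle livers. Liver 7 held the 1.24 FPKM and liver 2 the 116 FPKM, and 3 semaglutide livers were above and 2 below all vehicle livers. The SDs were 1.84 and 0.65 (limma, unadjusted p = 0.000673, adjusted p = 0.382). The members moved together in both groups, with a mean pairwise r of 0.71 among semaglutide livers and 0.65 among vehicle livers. Without liver 7 the median SD was 0.46, 9 of 14 members had the larger SD, against 57.3% of all genes, and the mean pairwise r was 0.32. Reads of these near-identical genes may be split between copies. Mup20, the most abundant of them, did not follow, with its lowest value of 3528 FPKM in liver 1.

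Other male-biased genes were low in the same liver. Slco1a1, an organic anion transporter of male hepatocytes (chromosome 6, 141907282-141946962), had 0.25, 13.1 and 31.4 FPKM in semaglutide livers, against 3.01, 5.24 and 16.8 FPKM in vehicle livers. The value of 0.25 FPKM was that of liver 7, and the next lowest semaglutide liver had 6.37 FPKM. Cyp4a12b, a testosterone-dependent fatty acid hydroxylase, had 1.55 FPKM in liver 7 and 4.44 to 16.4 FPKM in the other 7 semaglutide livers, and its SDs were 0.92 in semaglutide livers and 0.27 in vehicle livers (limma, unadjusted p = 0.0032). Over the 17 tested male-biased genes, 16 had the larger SD among semaglutide livers, against 59.1% of all genes, with medians of 0.49 in semaglutide livers and 0.27 in vehicle livers. Without liver 7, 12 of 17 did, against 57.3% of all genes, the median was 0.38, and the mean pairwise r among semaglutide livers was 0.08, against 0.45 with all 8.

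The female-biased steroid hydroxylase gene Cyp2a4 was highest in livers 7 and 8, at 111 and 79.8 FPKM. Its median was 17.2 FPKM in semaglutide livers and 5.22 FPKM in vehicle livers, where it reached 18.2 FPKM. The 8 tested female-biased genes had about equal median SDs, 0.52 in semaglutide livers and 0.51 in vehicle livers, and did not move together (mean pairwise r 0.06 among semaglutide livers and 0.22 among vehicle livers). Genes of the Y chromosome were expressed in all 8 semaglutide livers.

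Liver 7 also led the antioxidant genes. Nqo1, a quinone reductase and target of the transcription factor NRF2, had 5.48, 7.00 and 13.7 FPKM in semaglutide livers, against 8.5, 10.3 and 11.2 FPKM in vehicle livers. Liver 7 alone was above every vehicle liver, and 5 semaglutide livers were below every one (SDs 0.39 and 0.11; limma, unadjusted p = 0.00272, adjusted p = 0.431). The glutathione transferase gene Gstm3 had its highest semaglutide value, 226 FPKM, in liver 7, while the median was 73.4 FPKM in semaglutide livers and 133 FPKM in vehicle livers. Of 23 tested NRF2 and glutathione genes, 20 had the larger SD among semaglutide livers, 5 of them at unadjusted p under 0.05, with medians of 0.32 in semaglutide livers and 0.17 in vehicle livers. The shares of all genes were 59.1% and 5.57%. Without liver 7, 16 of 23 had the larger SD, against 57.3% of all genes, with a median of 0.26.

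The sterol and fatty acid genes ordered the livers differently again. All 25 cholesterol synthesis genes were tested. Of these, 23 had the larger SD among semaglutide livers, 7 of them at unadjusted p under 0.05, with medians of 0.40 in semaglutide livers and 0.25 in vehicle livers. By the same measures 59.1% and 5.57% of all genes did so. The mean pairwise r was 0.64 among semaglutide livers and 0.47 among vehicle livers. Liver 2 was highest over the list, at a mean log2 deviation of 0.69, and liver 4 followed at 0.39. Without liver 2, 20 of 25 members had the larger SD, against 59.0% of all genes, and the mean pairwise r was 0.46.

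Sqle, squalene epoxidase (chromosome 15, 59315077-59331192), had 0.58, 2.74 and 13.1 FPKM in semaglutide livers, lowest in liver 1 and highest in liver 2, against 0.61, 1.27 and 1.69 FPKM in vehicle livers. In 6 semaglutide livers it was above, and in 1 below, every vehicle liver, and the SDs were 0.94 and 0.24 (limma, unadjusted p = 0.00405, adjusted p = 0.462). The nearest genes to Sqle over the semaglutide livers included Fdft1, squalene synthase, with r = 0.96 (exact permutation p = 0.000446, adjusted p = 1.0 over 10182 genes; rho 0.93) and 0.81 without the 2 livers farthest from the median. Among vehicle livers Fdft1 and Sqle had r = 0.13. Idi1, the isopentenyl diphosphate isomerase, had r = 0.95 with Sqle among semaglutide livers (exact permutation p = 0.000471, adjusted p = 1.0; rho 0.88) and 0.62 among vehicle livers.

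By mean log2 deviation over the list, lipogenic genes were high in livers 4 and 6 and low in livers 7, 5 and 3. By summed FPKM the order differed, with liver 1 (13027) above liver 6 (11893) and liver 8 (8135) below livers 3 and 7. Fasn, fatty acid synthase, had 87.8, 186 and 347 FPKM in semaglutide livers and 103, 163 and 240 FPKM in vehicle livers. The groups overlapped, and 3 semaglutide livers were above every vehicle liver (SDs 0.75 and 0.48; limma, unadjusted p = 0.273). Acaca, acetyl-CoA carboxylase, kept the order of Fasn in all 8 semaglutide livers (r = 0.99, exact permutation p = 2.48e-05, adjusted p = 0.126 over 10182 genes; rho = 1.0) and had r = 0.96 with it among vehicle livers. Of 26 lipogenesis genes, all tested, 21 had the larger SD among semaglutide livers, against 59.1% of all genes, with medians of 0.39 in semaglutide livers and 0.30 in vehicle livers. At unadjusted p under 0.05, 2 of them had the larger spread and 1 the smaller, shares near the 5.57% and 2.56% of all genes. The mean pairwise r over the list was 0.35 among semaglutide livers and 0.49 among vehicle livers.

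**Figure D4:**
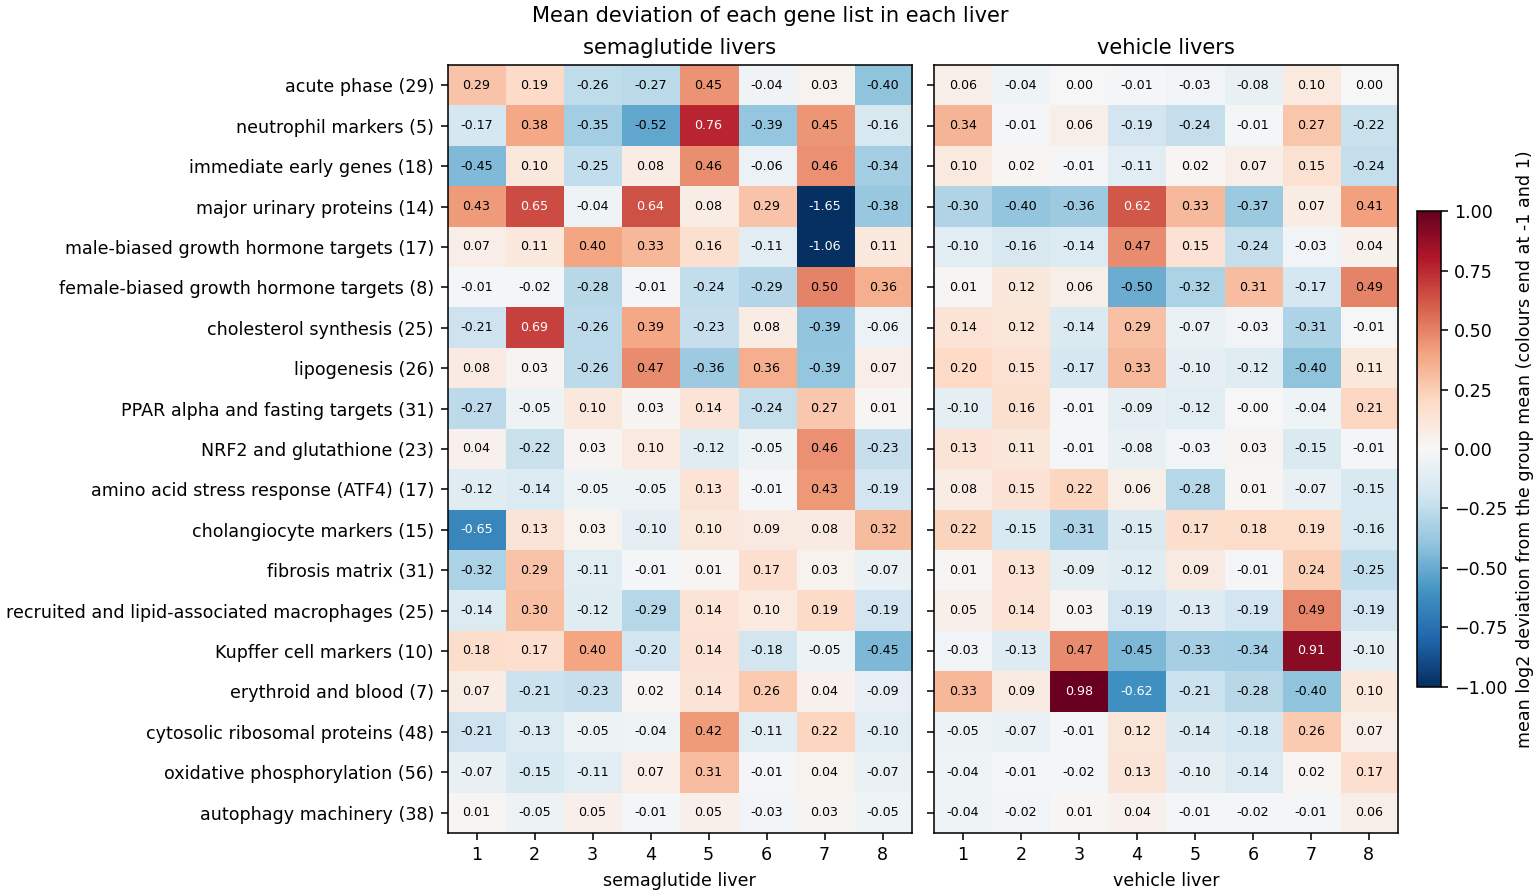
Mean log2 deviation from the group mean over the tested members of 19 gene lists (number of genes in brackets) in each of 8 semaglutide livers (left) and 8 vehicle livers (right). The acute phase list runs from 0.45 in semaglutide liver 5 to -0.40 in liver 8, and the major urinary proteins reach -1.65 in semaglutide liver 7.

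Bile duct markers were low in semaglutide liver 1. The 15 tested cholangiocyte markers had a mean log2 deviation of -0.65 there. Epcam, an epithelial adhesion molecule, had 2.09 FPKM in liver 1 and 6.2 to 8.95 FPKM in the other 7 semaglutide livers, against 2.94 to 7.95 FPKM in vehicle livers, and the sign of its difference in spread depended on which livers were used. The median SD of the list was 0.32 in semaglutide livers and 0.30 in vehicle livers, and it was 0.18 in semaglutide livers without liver 1. Fibrosis matrix genes were also lowest in liver 1 and highest in liver 2, at -0.32 and 0.29 over 31 tested genes. Of these, 23 had the larger SD among semaglutide livers, against 59.1% of all genes. It was 15 of 31 without liver 2, against 59.0% of all genes, and 12 of 31 without liver 1, against 56.9%. Fat cell markers were highest in liver 5, at 0.82 over 7 tested genes. Cfd, the adipokine adipsin, had 9.27 FPKM there, a median of 0.755 FPKM in semaglutide livers and 6.79 FPKM in vehicle livers, and was listed at 0 in semaglutide liver 7.

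Most markers of liver-resident macrophages and red blood cells had the smaller SDs among semaglutide livers. Of 10 tested Kupffer cell markers, 3 had the larger SD among semaglutide livers, against 59.1% of all genes. Their medians were 0.36 in semaglutide livers and 0.54 in vehicle livers. Vehicle livers 7 and 3 were the highest over this list, at mean log2 deviations of 0.905 and 0.47. Vsig4, a complement receptor of Kupffer cells, had 5.68, 10.5 and 18.0 FPKM in semaglutide livers, against 4.48, 14.6 and 42.2 FPKM in vehicle livers, where liver 7 held the highest value. Its SDs were 0.49 and 0.91 (limma, unadjusted p = 0.216). Of 7 tested erythroid genes, 1 had the larger SD among semaglutide livers, against the same 59.1%. The medians were 0.33 in semaglutide livers and 0.76 in vehicle livers. Vehicle liver 3 was the highest over the erythroid list, at a mean log2 deviation of 0.985. Counts for both lists without these vehicle livers were not computed. The plasma cell gene Jchain, the joining chain of antibodies, reached 12.1 FPKM in semaglutide liver 5 and 41.4 FPKM in vehicle liver 3, with SDs of 0.82 and 1.48 (limma, unadjusted p = 0.0332).

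The counts for ribosomal protein genes depended on liver 5. Of 48 tested cytosolic ribosomal protein genes, 44 had the larger SD among semaglutide livers, against 59.1% of all genes, with medians of 0.23 in semaglutide livers and 0.15 in vehicle livers. Without liver 5 it was 17 of 48, against 53.6% of all genes, and without livers 5 and 7 it was 4 of 48, against 48.2%. Rps29, a small subunit protein, had 196 FPKM in liver 5 and a median of 85.5 FPKM in semaglutide livers. Of 56 oxidative phosphorylation genes, 36 had the larger SD among semaglutide livers, a share close to the 59.1% of all genes. Without liver 5 it was 13 of 56, against 53.6% of all genes. The 38 autophagy machinery genes hardly varied in either group, with a median SD of 0.12 in each, and 21 had the larger SD among semaglutide livers, a share close to that of all genes.

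Of 14 genes chosen to stand for 1 programme each, 11 passed the filter on low values and gave 55 pairs. At adjusted p under 0.05, 0 pairs covaried in semaglutide livers and 0 in vehicle livers, by exact permutation test of Pearson's r or of Spearman's rho. At unadjusted exact p under 0.05 there were 6 pairs among semaglutide livers and 2 among vehicle livers. The strongest pair was Cyp4a14, a fatty acid hydroxylase induced by PPAR alpha, with the heat shock gene Hspa1b (r = 0.90, exact permutation p = 0.00231, adjusted p = 0.127; rho 0.83, exact p = 0.0154). It kept r = 0.90 without the 2 livers farthest from the median, and had r = 0.50 among vehicle livers. Saa2 and Mt1 had r = 0.77 (exact permutation p = 0.0233, adjusted p = 0.403; rho 0.71), r = 0.48 without the 2 farthest livers, and r = 0.72 among vehicle livers. Col1a1, the main fibrillar collagen, and Sqle had r = 0.80 (exact permutation p = 0.0286, adjusted p = 0.403; rho 0.45), which rested on 2 livers, since without them r was -0.13.

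**Figure D5:**
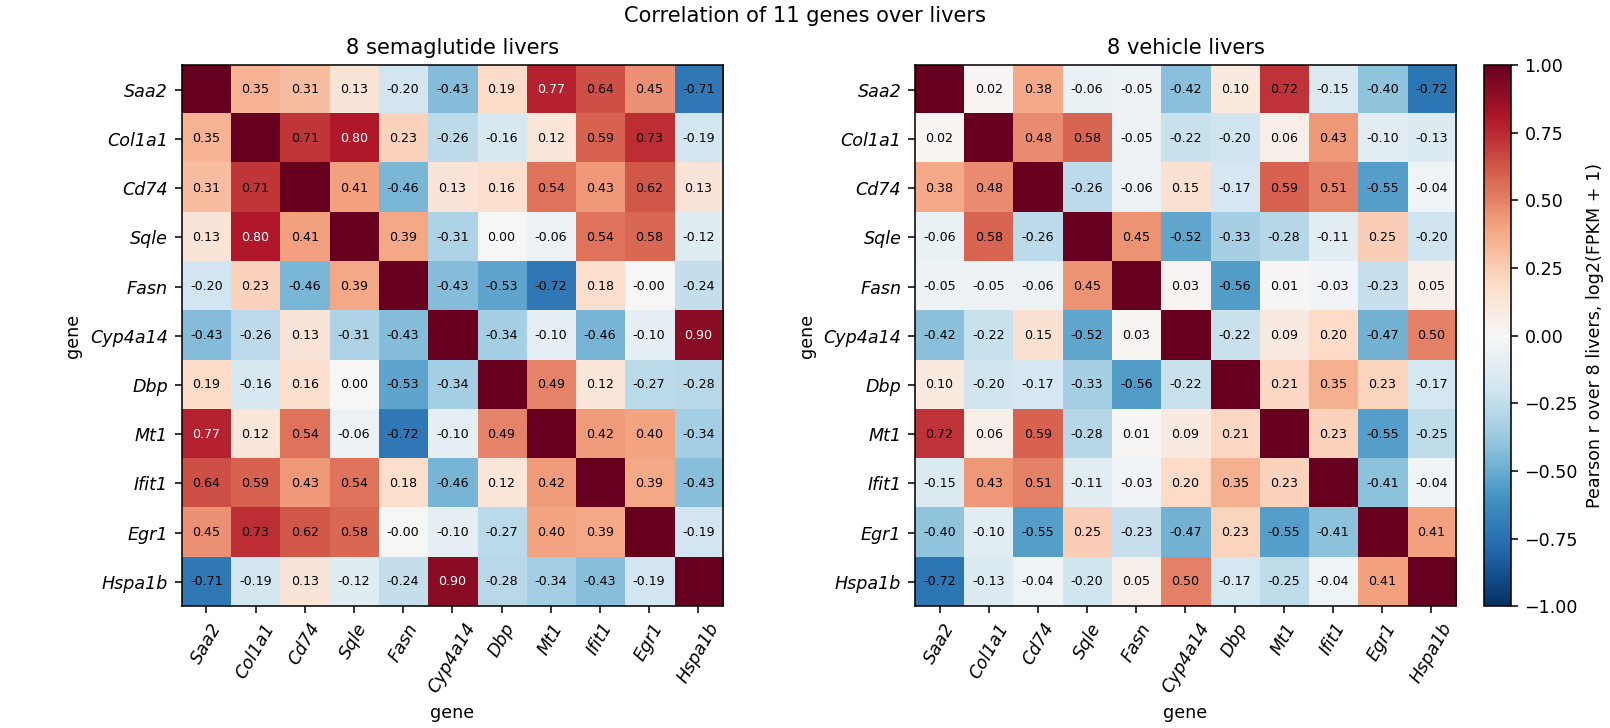
Pearson r of log2(FPKM + 1) between 11 genes over 8 semaglutide livers (left) and over 8 vehicle livers (right). The pair of Cyp4a14 and Hspa1b has the highest r among semaglutide livers, 0.90, and no pair passed the adjusted threshold in either group.

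No gene passed the adjusted threshold with any of the 11 genes, at 0 of 10182 genes each, while 368 (3.61%, Dbp) to 1352 (13.3%, Cd74) had an unadjusted exact permutation p under 0.05. With 8 livers, 1 gene alone at the smallest possible exact p cannot pass this adjustment. Mrc2 kept the order of Col1a1 (rho 1.0, exact permutation p = 2.48e-05), and its adjusted p was 0.253. The count of 0 therefore cannot show that no genes covary. Some of the closest neighbours were known partners, picked for naming here, and others were not. Mfsd13a was nearest to Ifit1 and Hdgf to Hspa1b, with r = 0.98 and 0.96 among semaglutide livers. Among vehicle livers these pairs had r = 0.18 and 0.02. The adjusted p of the genes named here lay between 0.126 and 0.817. Col1a2 followed Col1a1 (r = 0.97 among semaglutide livers, rho 0.79, exact permutation p = 0.000893, and r = 0.97 among vehicle livers), and the class II genes H2-Eb1 and H2-Ab1 followed the invariant chain gene Cd74 (r = 0.99 and 0.98 among semaglutide livers, 0.98 and 0.96 among vehicle livers). Jun, which encodes a subunit of AP-1, followed the early response factor gene Egr1 with r = 0.95 among semaglutide livers (exact permutation p = 0.000198; rho 0.95) and -0.25 among vehicle livers. The gene nearest to Cyp4a14 was Pon2, paraoxonase-2, with r = 0.98 among semaglutide livers (exact permutation p = 0.000298, adjusted p = 0.303; rho 0.98) and -0.02 among vehicle livers. Pon2 itself ranged only from 7.6 to 10.4 FPKM in semaglutide livers and from 7.63 to 9.26 FPKM in vehicle livers, and the difference between the 2 groups' r was not tested.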

How the data were processed

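Stranded poly(A) libraries of liver RNA were sequenced with paired-end reads, per the labels' protocols. The deposited table holds FPKM values, computed by the authors. The submitters' processing notes list HISAT2, StringTie and DESeq2. Versions, settings and the genome build were not given in the sources used here. All 14293 identifiers matched GENCODE M21 (GRCm38). The 6 rows that share a symbol were left out. FPKM depends on what else fills a library, and log2(FPKM + 1) understates changes of low genes.

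Depth was implied from genes of up to 1500 bp with values between 0.03 and 0.3 FPKM, taken as whole fragments at a tolerance of 0.2. Spread was tested with limma 3.58.1 in R 4.3.3 on absolute deviations from the group mean (scaled for group size, mean trend, 2-sided, Benjamini-Hochberg, threshold 0.05). Exact permutation tests, correlations and principal components used Python 3.11 with numpy and scipy. Alternatives were pseudocounts of 0.1 and 0.5, other filters, TPM, quantile and median scaling, and the replicate block. Others were deviations from the group median, all 3 groups in 1 fit, no mean trend and each liver left out. Chosen after seeing the data were the Wilcoxon test and removal of GC and length trends and of livers 5 and 7.

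The members, gene lists and the rule for named genes were chosen with earlier results of these data known. The rule takes the 20 highest SDs, the 2 highest in each list, the 14 programme genes with their nearest genes, and the leading genes of 2 components. Named genes outside it (the fibrinogen, Hp, Crp, Cp, Orm1, Serpina3n, Mup20, Cyp4a12b and Nqo1 genes among them) were picked after their values were seen.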

Additional observations from a re-analysis of the deposited data

Results flagged for a closer look

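Among 54 groups of 8 values (27 named genes in the semaglutide and in the vehicle livers), 3 held a liver whose gap to the nearest other liver was above Dixon's 95% critical value as a share of the group's range, on the log2 scale. Chance alone marks about 1 in 20 such groups. Slco1a1 was lowest in semaglutide liver 7, at 0.25 FPKM, with a gap of 0.545 of the range. Epcam was lowest in semaglutide liver 1, at 2.09 FPKM, with a gap of 0.723 of the range. Cyp4a12b was highest in vehicle liver 4, at 24.97 FPKM, with a gap of 0.599 of the range. Over all 10183 genes, 5.47% held such a liver in the semaglutide group and 4.86% in the vehicle group. Semaglutide liver 5 was the one apart for 158 of the 557 such genes of the semaglutide group, in 121 of them as the highest, and liver 6 for 11.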

How the results depend on the processing

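The count of genes with larger spread among semaglutide livers was 0 as reported and 1 in 3 alternatives: with no filter on low values (Kcna3), with no mean trend (Sap30) and without livers 5 and 7 (Orm3, adjusted p = 0.0321). The count with smaller spread was 0 throughout. The share of genes with larger SD among semaglutide livers was 57.9% with quantile normalization, 64.5% at a mean of at least 5 FPKM, 53.3% with no filter, 57.7% without GC and length trends, 48.2% without livers 5 and 7, and 53.6 to 62.1% with 1 liver left out. The first component held 23.8% without GC and length trends, 26.6% without livers 5 and 7, and 28.7 to 35.0% with 1 liver left out. The difference in distance ran from 0.00449 without semaglutide replicate 5 to 0.0153 without semaglutide replicate 6, where it passed the threshold (exact permutation p = 0.0339). The count of covarying pairs was 0 to 1 with 1 liver left out, and 1 only without semaglutide replicate 8. The cause of these changes was not tested.

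Of 783 alternative values for 27 named genes, 14 reversed. Without livers 5 and 7 the difference in mean absolute deviation was -0.10 for Gadd45g, -0.13 for Myc, 0.0786 for Epcam (-0.02 as reported) and -0.21 for Rps29 (0.07 as reported). With 1 liver left out it ran from -0.24 to 0.0704 for Epcam and from -0.12 to 0.12 for Rps29.

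The replicate numbers did not pair the samples: deviations of same-numbered livers correlated between -0.26 and 0.27, and 1 of 8 semaglutide livers was closest to its own number. With the replicate block the count was 0 in either direction, and the distance differed by 0.00918 (exact sign-flip test, p = 0.18).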
